A study of Homo sapiens with 10 samples.

Results

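Lysophospholipid acyltransferases are the enzymes that put a second fatty acid back onto a phospholipid that carries only 1. The 10 genes described here, AGPAT1 to AGPAT5, LPCAT1 to LPCAT4 and LPGAT1, were taken by symbol from the 36498 genes of an RNA sequencing table, and each symbol matched 1 gene. They were measured in AsPC-1, an established human pancreatic ductal adenocarcinoma line. Control cells (5 libraries) stood for 24 h in complete RPMI medium with 10% serum. Starved cells (5 libraries) stood for 24 h in RPMI without glutamine, with 10% dialysed serum. The labels do not say whether the control serum was dialysed, so loss of glutamine and of other small serum molecules cannot be told apart. Nothing in the labels says that replicates were separate cultures, so the p-values measure the spread between these libraries. In such bulk samples, fewer cells expressing a gene and less RNA per cell cannot be told apart.

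Cells make phosphatidic acid, the parent of membrane phospholipids and of triglycerides, by adding a fatty acid to lysophosphatidic acid, the step of the AGPAT enzymes. In the remodelling cycle named after Lands, phospholipases remove a fatty acid and LPCAT enzymes put another one in its place, which sets how saturated a membrane is. LPGAT1 acylates lysophosphatidylglycerol and related lysolipids.

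The libraries read the 3' ends of transcripts and are shallow. Whole counts recovered from the deposited values numbered 141763 to 474619 in control and 164008 to 593248 in starved libraries. The medians were 395645 in control and 201642 in starved libraries, as starved libraries 2 to 5 held only 164008 to 215121. A value of 0 in those starved libraries is therefore a weaker sign of absence than in most control libraries. Levels are in CPM, scaled so that each library sums to 1000000, and a single count was worth 1.69 to 7.05 CPM. As each transcript is read near its end, CPM were not divided by length. Epithelial identity was checked with markers. The epithelial genes KRT8, KRT18, KRT19 and EPCAM were all present, at 244 CPM or more on average in each group, but all 4 were called lower in starved cells. KRT8 stood at 4075 ± 92.7 CPM in control and 244 ± 20.8 CPM in starved libraries, while KRT7 and CDH1 were tested and not called. MUC1, another epithelial gene of the list, had 1 count in all control and 0 in all starved libraries. The leukocyte gene PTPRC had 2 counts in all control and 1 in all starved libraries. The fibroblast genes COL3A1 and DCN, the endothelial gene CDH5 and 4 of 6 acinar genes stood at 0 in all libraries. The endothelial gene VWF had 2 counts in all control and 10 in all starved libraries; limma did not call it (adjusted p = 0.193) and edgeR called it higher (adjusted p = 0.0301). Summed endothelial markers were 0 to 4.97 CPM in control and 0 to 36.6 CPM in starved libraries. Single members of the lists for other cell types differed between the groups: summed fibroblast markers were 84.6 to 157 CPM in control and 21.2 to 36.6 CPM in starved libraries, nearly all from LUM, and summed leukocyte markers were 96.9 to 141 and 74.4 to 122 CPM, nearly all from LYZ and CD68. These moved in opposite directions: LYZ fell from 76.4 ± 18.1 to 8.62 ± 3.08 CPM and CD68 rose from 43.6 ± 9.02 to 81.8 ± 19.4 CPM (limma adjusted p = 1.2e-06 and 0.00509). The part of these marker differences in the results that follow was not tested.

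Some of these transcripts changed in level in glutamine-starved cells. AGPAT4, nearly undetected in control cells, reached 71.0 ± 6.53 CPM (SD, n = 5) in starved cells. AGPAT2, AGPAT3, LPCAT1, LPCAT4 and LPGAT1 fell, AGPAT2 the least and LPCAT1 the most on limma's log2 scale. AGPAT5, LPCAT3 and AGPAT1 did not pass the test, and LPCAT2 was too low to be tested. Tests were made by limma-trend on log2(CPM + 1) over every gene averaging 5 CPM or more (11202 genes); p-values were adjusted over all of these after Benjamini and Hochberg and read at a threshold of 0.05. Of the 10 genes 9 were tested, of which 1 rose and 5 fell, where 17.2% of all tested genes were called higher and 26.1% lower. The median log2 change of the 9 genes was -0.57 against -0.22 over all tested genes. Its direction depended on the filter, as it was 0.067 over the 7 genes that average 20 CPM or more (all genes -0.14) and -0.25 over 10 genes without a filter (all genes -0.08). In 4 of the 9 the values of the 2 groups did not overlap (AGPAT1 and AGPAT4 above control, AGPAT3 and LPCAT4 below it). Of all tested genes 30.4% are so separated, 12.5% above and 17.9% below control. For AGPAT1 and LPCAT4 the gap was smaller than the worth of 1 count in the libraries that set it.

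**Figure D1:**
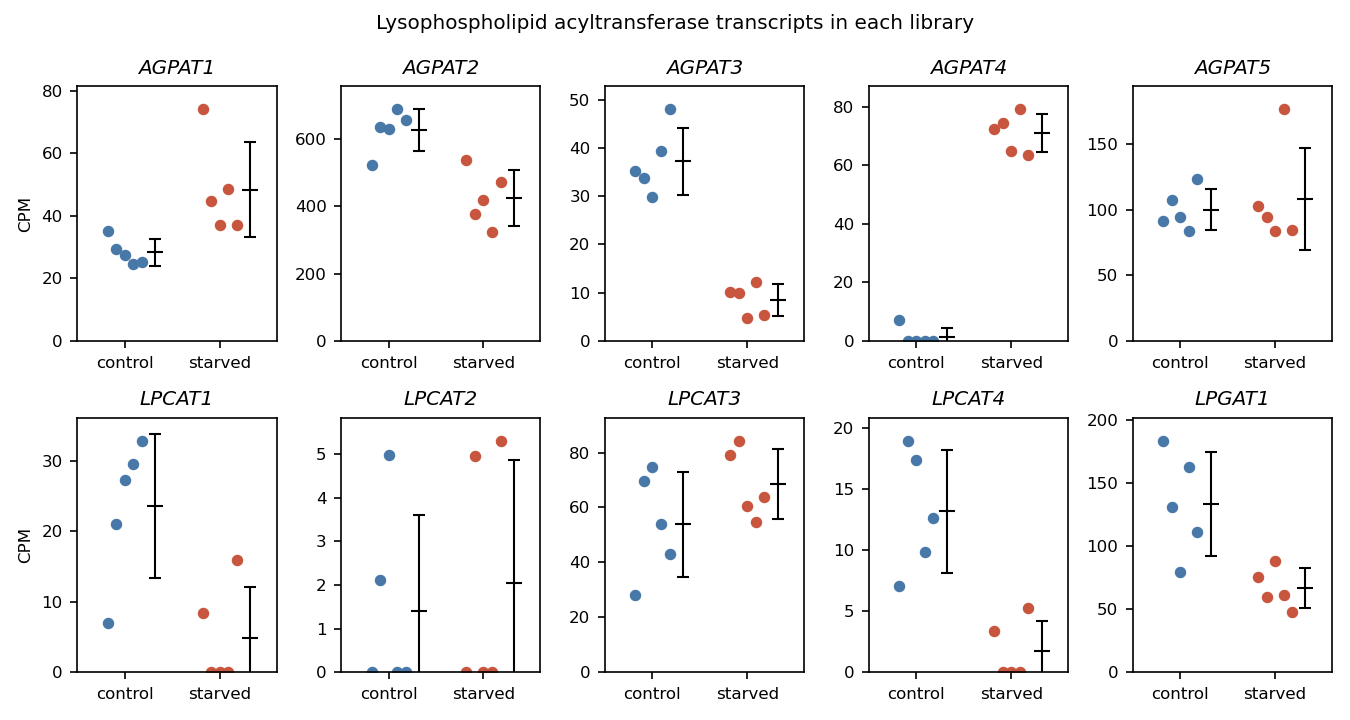
CPM of the 10 genes in each of the 5 control (blue) and 5 starved (red) libraries, each panel on its own linear axis from 0, with the mean and SD in black (bars that would pass below 0 end at the axis). AGPAT4 stands at 0 in 4 control libraries and between 63.7 and 79.3 CPM in the starved ones, while AGPAT3 falls from a lowest control value of 29.8 CPM to a highest starved value of 12.2 CPM.

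AGPAT4, an acyltransferase that makes phosphatidic acid and is known from mouse brain, was the one gene of the family that rose by limma. Its control libraries 1 to 5 held 7.05, 0, 0, 0 and 0 CPM, which is 1 count over the group. The starved libraries 1 to 5 held 72.5, 74.4, 65.1, 79.3 and 63.7 CPM, from 43, 15, 14, 13 and 12 counts. All starved libraries thus stood far above all control libraries, and the starved values lay close together, with an SD 0.363 times the one that counting alone would give. The ratio of pooled CPM, from 97 against 1 counts, was 115, with an exact binomial 95% interval of 20.2 to 4595 that covers counting error only. With a pseudocount of 1 the log2 change was 5.56 (SE 0.66, limma adjusted p = 6.5e-07). At that setting 5 of the 11202 tested genes, AGPAT4 included, had a log2 change at least as large (0.0446%). As control libraries 2 to 5 held 0, the size of the change depends on the pseudocount, and with 5 it was 3.67. The rank was not read at other pseudocounts, and AGPAT4 passed the filter of 5 CPM only through its starved values. AGPAT4-IT1, a transcript annotated within AGPAT4 on the same strand, had 0 and 3 counts over the groups. MAP3K4, a protein-coding gene beside AGPAT4, was not called, at 22.4 ± 9.73 CPM in control and 11.5 ± 11.1 CPM in starved libraries.

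The sequence around the AGPAT4 start, 250 bases before it to 50 bases after, is shown because this was the one gene of the family that limma called higher, beside those of LPCAT1 and LPCAT4, which had the largest falls by limma with a pseudocount of 1 (with 5, AGPAT3, at -1.67, fell further than LPCAT4). The sequences are RefSeq's on GRCh38.p14, read along the gene, AGPAT4 from chr6:161274012-161274311, LPCAT1 from chr5:1523911-1524210 and LPCAT4 from chr15:34367147-34367446, all on the minus strand. Capitals mark matches to the motifs searched.
AGPAT4: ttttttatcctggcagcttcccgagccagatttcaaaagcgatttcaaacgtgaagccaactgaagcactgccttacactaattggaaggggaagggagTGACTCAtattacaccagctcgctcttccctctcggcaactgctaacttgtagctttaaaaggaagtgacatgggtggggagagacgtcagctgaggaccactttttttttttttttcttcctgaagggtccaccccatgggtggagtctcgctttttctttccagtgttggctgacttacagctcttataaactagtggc
LPCAT1: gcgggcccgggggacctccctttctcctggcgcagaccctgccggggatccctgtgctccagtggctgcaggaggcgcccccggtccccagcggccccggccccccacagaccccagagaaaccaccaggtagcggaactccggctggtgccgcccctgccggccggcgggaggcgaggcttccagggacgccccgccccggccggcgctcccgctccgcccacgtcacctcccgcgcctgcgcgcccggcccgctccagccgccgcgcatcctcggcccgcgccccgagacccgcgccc
LPCAT4: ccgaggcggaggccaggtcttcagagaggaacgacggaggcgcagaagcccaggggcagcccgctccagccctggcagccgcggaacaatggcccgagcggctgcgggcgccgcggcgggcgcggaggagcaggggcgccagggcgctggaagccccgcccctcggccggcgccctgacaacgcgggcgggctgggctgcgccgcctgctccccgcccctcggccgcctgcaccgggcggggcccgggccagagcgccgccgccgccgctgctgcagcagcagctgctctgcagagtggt
The AGPAT4 stretch was 46.7% G and C with 7 CpG pairs, and those of LPCAT1 and LPCAT4 were 80.0% and 79.3% with 38 and 39 pairs. Few pairs were not particular to AGPAT4. AGPAT3, called lower, had stretches of 39.3% and 65.3% with 6 and 9 pairs, and AGPAT1, not called, had 1 to 11 pairs. AGPAT2 and LPGAT1, called lower, had 33 pairs and 34 to 50 pairs, and LPCAT3, not called, had 30. A link between these values and the direction of change was not tested. Over the 35116 promoter stretches in the table the medians were 58.7% and 14 pairs. Promoter stretches were found for 8 of the 10 genes, AGPAT1, AGPAT3 and LPGAT1 with more than 1 start.

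Both strands were searched for 4 motifs: the ATF4 and C/EBP composite TGATGNAA, the E-box CACGTG, the sterol response element and the direct repeat bound by LXR with a spacer of 4 bases. None of the 8 genes held one, where 3.62%, 7.26%, 0.154% and 0.0199% of all stretches do. The AP-1 motif TGANTCA and the EGR1 motif GCGTGGGCG were added after the values were seen. The first is in 7.71% of all stretches, and it lay in the AGPAT4 stretch at position -151 and in 1 of 5 AGPAT1 stretches. The second is in 0.795% of all stretches and lay in none of these genes. These matches describe letters only.

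AGPAT2, the family's most abundant transcript, encodes the phosphatidic acid-forming enzyme whose loss in people causes a form of generalized lipodystrophy. In control libraries 1 to 5 it stood at 522, 636, 629, 689 and 657 CPM. Starved libraries 1 to 5 held 538, 377, 418, 323 and 472 CPM. The groups overlapped only through control replicate 1, the lowest control value, and starved replicate 1, the highest starved one. The mean fell from 627 ± 63.0 to 426 ± 83.2 CPM (SD, n = 5 each). On the log2 scale AGPAT2 changed by -0.57 (SE 0.13, limma adjusted p = 0.000863). It was called in all 21 alternative fits, with log2 changes of -0.66 to -0.43. EGFL7, its neighbour on one side, fell from 78.8 ± 20.5 to 46.0 ± 22.8 CPM (limma adjusted p = 0.0247).

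AGPAT3, an isoform known for incorporating polyunsaturated fatty acids, fell further. Levels were 35.3, 33.7, 29.8, 39.4 and 48.0 CPM in control libraries 1 to 5. Starved libraries 1 to 5 held 10.1, 9.92, 4.65, 12.2 and 5.31 CPM. No starved library reached any control library, and the mean went from 37.2 ± 6.93 to 8.44 ± 3.29 CPM, 4.41-fold lower. The log2 change was -2.08 (SE 0.45, limma adjusted p = 8.0e-04). Both of its protein-coding neighbours, RRP1 and TRAPPC10, were not called (log2 changes -0.39 and 0.37).

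AGPAT1, an isoform present in most tissues, lay higher in every starved than in every control library but did not pass the main test. Control libraries 1 to 5 held 35.3, 29.5, 27.3, 24.6 and 25.3 CPM, and starved libraries 1 to 5 held 74.2, 44.6, 37.2, 48.8 and 37.2 CPM. The margin lay between 5 counts in control replicate 1 and 7 counts in starved replicate 5. It was smaller than the worth of 1 count in either library (7.05 and 5.31 CPM). Its log2 change was 0.71 (95% interval 0.09 to 1.33, limma adjusted p = 0.0594). The edgeR quasi-likelihood test on the recovered counts called it higher (log2 change 1.03, adjusted p = 0.00205), where edgeR called 22.2% of all tested genes higher. Of 76 starved counts 44 came from starved replicate 1, the deepest library, which held 593248 of the 1362424 counts of all genes in the group. Without that library the limma log2 change was 0.55 (adjusted p = 0.185). Over the 21 alternative fits the adjusted p ran from 0.00205 to 0.185, and 7 called it. AGPAT1 overlaps PPT2-EGFL8 and EGFL8 on the opposite strand, and the use of strand is not known; their counts were 16 and 1 in all control and 7 and 1 in all starved libraries.

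AGPAT5, known as a mitochondrial isoform, averaged 100 ± 15.7 CPM in fed and 108 ± 39.0 CPM in starved cells. Its control libraries, in replicate order, held 91.7, 107, 94.4, 83.6 and 124 CPM. Starved libraries 1 to 5 held 103, 94.2, 83.7, 177 and 84.9 CPM. Apart from starved replicate 4, the starved values lay within the control range. The log2 change was 0.067, with a 95% interval of -0.36 to 0.50 (limma adjusted p = 0.818), and -0.12 without starved replicate 4 (adjusted p = 0.623).

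**Figure D2:**
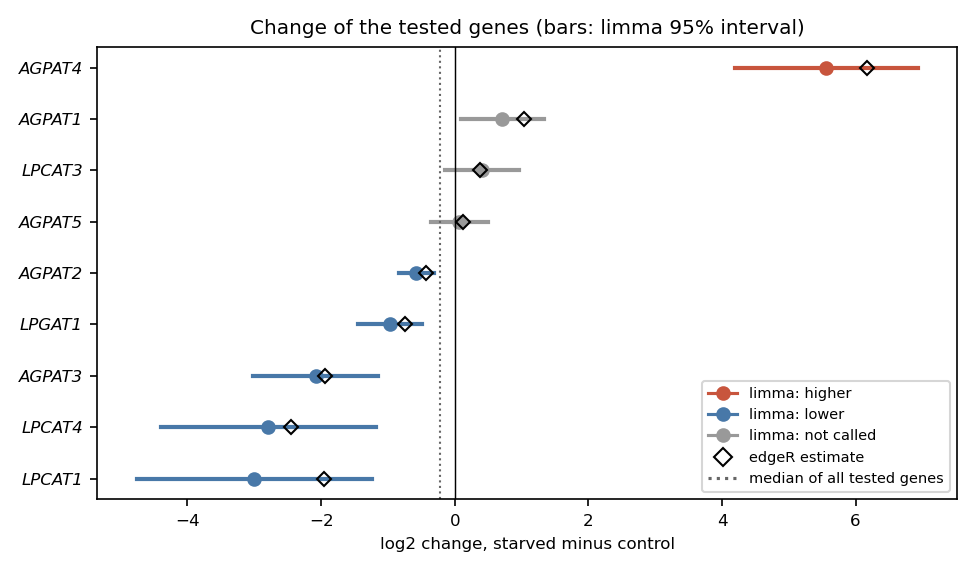
Log2 change, starved minus control, of the 9 tested genes from limma (circles, with 95% intervals) and from edgeR (open diamonds), with the median of all tested genes as a dotted line at -0.22. AGPAT4 lies at 5.56, the 3 genes in grey did not pass the limma test, and LPCAT1, LPCAT4 and AGPAT3 lie below -2.0 by limma.

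LPCAT1, which makes saturated phosphatidylcholine and is known for its part in lung surfactant, fell. The control values, replicates 1 to 5, were 7.05, 21.1, 27.3, 29.5 and 32.9 CPM. Starved libraries 1 to 5 held 8.43, 0, 0, 0 and 15.9 CPM. The starved libraries at 0 had 3-count floors of 13.9 to 18.3 CPM, so a level below that could have been missed in any 1 of them. Pooled over the groups, 41 control and 8 starved counts gave a level 4.32-fold lower in starved cells (exact binomial 95% interval 2.00 to 10.7, counting error only). The limma log2 change had a 95% interval of -4.76 to -1.24 (SE 0.85, limma adjusted p = 0.00695). Its estimate was -1.71 with a pseudocount of 5 and -1.95 by edgeR (adjusted p = 0.00107), which called 25.6% of all tested genes lower. The groups overlapped, as control replicate 1, the shallowest library, held 1 count. MRPL36, its neighbour on one side, fell as well, by 0.81 on the log2 scale (limma adjusted p = 0.000663).

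LPCAT4, which acts on ethanolamine as well as choline lysolipids, showed the same order at a lower level. Control libraries 1 to 5 held 7.05, 19.0, 17.4, 9.84 and 12.6 CPM. Starved libraries 1 to 5 held 3.37, 0, 0, 0 and 5.31 CPM. The groups did not overlap, but the margin was that between 1 count in control replicate 1 and 1 count in starved replicate 5. From 24 against 3 pooled counts the level was 6.74-fold lower in starved cells (exact binomial 95% interval 2.05 to 35.0). By limma LPCAT4 changed by -2.79 on the log2 scale (SE 0.78, limma adjusted p = 0.00612), and -1.46 with a pseudocount of 5. LPCAT4 and LPCAT1 passed the filter of 5 CPM only through their control values, as their starved means were 1.74 and 4.87 CPM. Without a filter limma called both lower (adjusted p = 0.0227 and 0.00126).

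LPCAT3, which puts polyunsaturated fatty acids into phosphatidylcholine and belongs to the membrane-bound O-acyltransferases, a protein family apart from the other genes here, was not called. Control libraries 1 to 5 held 28.2, 69.5, 74.6, 54.1 and 43.0 CPM, and starved libraries 1 to 5 held 79.2, 84.3, 60.4, 54.9 and 63.7 CPM. Its log2 change was 0.40, with a 95% interval of -0.15 to 0.96 (limma adjusted p = 0.234), and none of the 21 alternative fits called it. LPCAT3 overlaps C1S, with 0 and 1 counts over the groups, and EMG1, which was not analysed here. LPCAT2, which makes platelet-activating factor in inflammatory cells, had 3 counts over the control and 2 over the starved libraries. Its mean of 1.73 CPM kept it from being tested. The pooled ratio of starved to control was 0.792 with an exact binomial 95% interval of 0.0661 to 6.91, and a fall from its control level was not detectable at this depth.

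LPGAT1 fell by 0.97 on the log2 scale (SE 0.23, limma adjusted p = 0.00173), and its mean went from 133 ± 41.1 to 66.5 ± 15.8 CPM. Control libraries 1 to 5 held 183, 131, 79.5, 162 and 111 CPM. Starved libraries 1 to 5 held 75.9, 59.5, 88.3, 61.0 and 47.8 CPM. Only control replicate 3 and starved replicate 3 crossed. The control spread was 1.90 times what counting alone gives, in a range of 0.363 to 2.05 times over the 10 genes and both groups. NEK2, a mitotic kinase gene beside LPGAT1, fell from 48.0 ± 5.30 to 10.1 ± 6.83 CPM (limma adjusted p = 0.00161), and INTS7 on the other side was not called.

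The order of CPM levels changed with the condition. In control cells AGPAT2 led, followed by LPGAT1, AGPAT5, LPCAT3, AGPAT3, AGPAT1, LPCAT1 and LPCAT4, with LPCAT2 and AGPAT4 last at 1.42 and 1.41 CPM. Neighbours in that order had overlapping libraries except AGPAT2 over LPGAT1, AGPAT5 over LPCAT3 and LPCAT4 over LPCAT2. In starved cells the order was AGPAT2, AGPAT5, AGPAT4, LPCAT3, LPGAT1, AGPAT1, AGPAT3, LPCAT1, LPCAT2 and LPCAT4. There the neighbours without overlap were AGPAT2 over AGPAT5, AGPAT5 over AGPAT4 and AGPAT1 over AGPAT3. AGPAT4 thus moved from last place to a level shared with LPCAT3 and LPGAT1.

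The summed level of the 10 genes was 1019 ± 69.1 CPM in control and 806 ± 91.0 CPM in starved libraries (n = 5 each). Without AGPAT2 the sums were 393 ± 22.0 and 380 ± 48.1 CPM, so the lower total lay mostly in AGPAT2. Within the sums without AGPAT2, falls and rises offset each other: mean LPGAT1 went from 133 to 66.5 CPM and mean AGPAT4 from 1.41 to 71.0 CPM. AGPAT2 made up 61.4% ± 2.76 of the sum in control and 52.6% ± 6.31 in starved libraries. AGPAT4 went from 0.154% ± 0.344 to 8.89% ± 1.27 of the sum, with 7.52% in the lowest starved library. AGPAT3 went from 3.65% ± 0.599 to 1.05% ± 0.428, and LPCAT1 and LPCAT4 from 2.28% and 1.29% to 0.572% and 0.202%. These shares are described without a test.

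**Figure D3:**
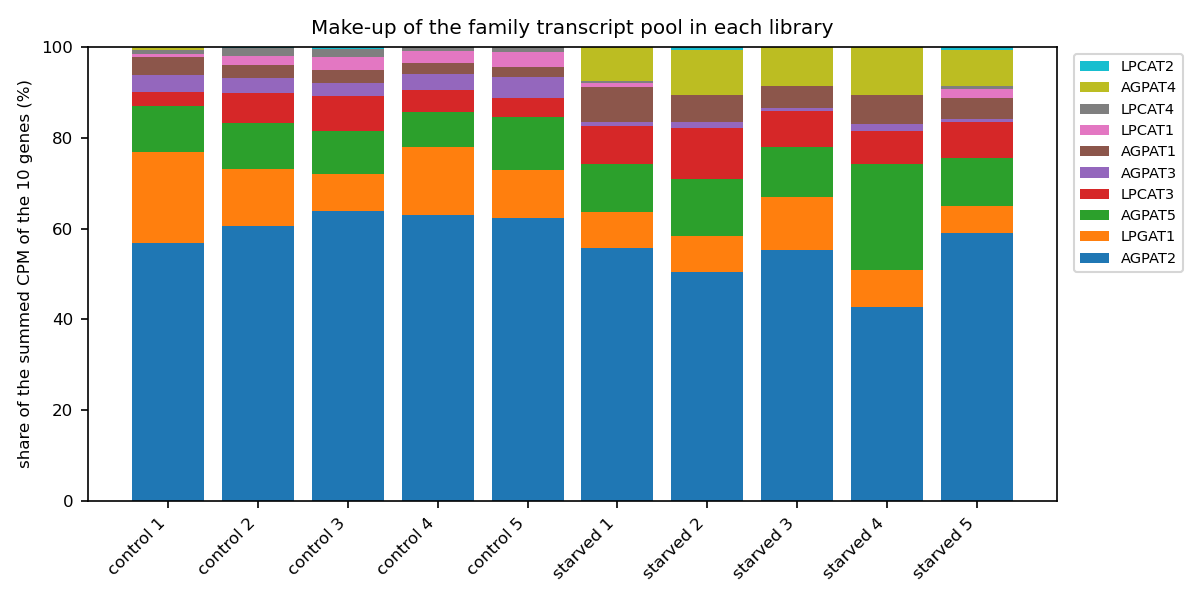
Share of each gene in the summed CPM of the 10 genes (percent, stacked to 100) in every library. AGPAT2 takes 56.9% to 63.9% in control and 42.7% to 58.9% in starved libraries, and the AGPAT4 segment, 7.52% to 10.5% in starved libraries, is 0 in 4 control libraries.

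Profiles most like those of AGPAT4 and AGPAT3, the rising and the falling gene with the smallest p, were sought among 6998 other genes that averaged 20 CPM or more. Likeness was the root mean square difference, over the 10 libraries, of log2(CPM + 1) minus the control mean. The group difference enters this measure, so genes with a log2 change of like size rank near by construction. Nearest to AGPAT4 were C7orf57 (difference 0.49; 1.83 ± 3.06 in control and 93.9 ± 14.2 CPM in starved libraries), SUN3 (0.54) and EGR1 (0.77). SUN3 went from 12.8 ± 9.04 to 445 ± 25.0 CPM and EGR1, an immediate early transcription factor, from 34.7 ± 4.87 to 1628 ± 271 CPM. C7orf57 and SUN3 are neighbours in the RefSeq gene order, and the genes on either side of the pair rose too: UPP1, next to C7orf57, from 124 ± 24.1 to 5068 ± 211 CPM (log2 change 5.36) and HUS1, next to SUN3, from 37.4 ± 5.79 to 129 ± 21.8 CPM (log2 change 1.76). Nearest to AGPAT3 were NSMAF (0.20; 42.0 ± 7.55 to 8.44 ± 3.29 CPM), LAPTM4B (0.23) and TMEM160 (0.28).

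The steps on either side of the family were read from fixed lists. For every list the counts stand beside 17.2% of all tested genes called higher and 26.1% called lower by limma. No list was tested against these shares. Some of the genes named below passed the filter of 5 CPM only through the group where they are higher. These were MBOAT1, CHPT1, LPAR5 and NR1H3 through control values, and LPAR6 and ABCG1 through starved ones. Upstream, glycerol-3-phosphate acyltransferases make lysophosphatidic acid, and of 3 tested genes 1 fell and 0 rose. GPAM, the mitochondrial enzyme, fell from 28.0 ± 11.4 to 7.50 ± 8.55 CPM (limma adjusted p = 0.0111). GPAT3, listed under its older symbol AGPAT9, did not pass, at 23.5 ± 8.60 CPM fed and 40.4 ± 6.78 CPM starved (limma adjusted p = 0.0594), and edgeR called it higher (adjusted p = 0.0337). Of 5 other lysophospholipid acyltransferases tested, MBOAT2 rose from 187 ± 42.7 to 258 ± 35.2 CPM and MBOAT1 fell from 10.4 ± 6.27 to 2.39 ± 2.60 CPM, and 3 were not called. The fall of MBOAT1 was not called by edgeR.

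Downstream of phosphatidic acid, of 8 tested phosphatidate phosphatases and triglyceride synthesis genes 1 rose and 3 fell. LPIN1, a phosphatidic acid phosphatase, rose from 14.1 ± 4.61 to 75.3 ± 24.8 CPM (log2 change 2.30, limma adjusted p = 3.3e-05). DGAT1, which makes triglycerides, fell from 81.5 ± 10.5 to 27.5 ± 7.32 CPM, and PPAP2C, a lipid phosphate phosphatase, from 141 ± 30.5 to 57.8 ± 23.9 CPM. In the CDP-diacylglycerol branch, which leads to phosphatidylinositol and cardiolipin, 2 of 7 tested genes fell and 0 rose: PTPMT1, from 177 ± 13.8 to 60.9 ± 17.3 CPM, and CDS1, from 30.3 ± 2.59 to 5.37 ± 4.77 CPM.

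Among 11 tested genes of phosphatidylcholine and phosphatidylethanolamine synthesis 2 rose and 4 fell. PEMT, which methylates phosphatidylethanolamine, fell from 85.0 ± 12.3 to 5.47 ± 2.72 CPM (log2 change -3.84, limma adjusted p = 2.4e-07). CHPT1, the choline phosphotransferase, fell, with 25 and 3 counts over the groups, and PCYT2, of the ethanolamine route, fell from 42.7 ± 10.9 to 10.9 ± 7.16 CPM. Of 17 tested phospholipases A, which supply the lysolipids, and lysophospholipases, 3 rose and 4 fell. Of all tested genes 17.2% were called higher and 26.1% lower. PNPLA8 rose from 34.7 ± 13.0 to 120 ± 25.3 CPM, while PLA2G16 fell from 158 ± 13.6 to 17.6 ± 10.1 CPM and PAFAH1B3, of the platelet-activating factor hydrolase, from 91.3 ± 18.6 to 12.4 ± 5.68 CPM.

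Acyl-CoA synthetases make the fatty acyl donors, and of 5 tested genes 2 rose and 0 fell. ACSL3 rose from 91.6 ± 8.24 to 248 ± 48.2 CPM, and ACSL4, known for its preference for polyunsaturated fatty acids, from 47.2 ± 7.85 to 107 ± 12.4 CPM. Of 6 tested desaturases and elongases 1 rose and 3 fell: ELOVL1 rose from 63.0 ± 13.1 to 367 ± 48.3 CPM (limma adjusted p = 6.1e-11). SCD, which makes monounsaturated fatty acids, fell from 86.5 ± 19.9 to 24.7 ± 3.99 CPM and FADS2, of polyunsaturated synthesis, from 85.7 ± 6.55 to 35.0 ± 13.5 CPM.

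Of 4 tested genes of lysophosphatidic acid and platelet-activating factor signalling 1 rose and 1 fell. LPAR6, a receptor for lysophosphatidic acid, had 3 and 38 counts over the groups, a pooled ratio of 15.0 (exact binomial 95% interval 4.77 to 76.2), and LPAR5, another receptor, fell, with 12 and 1 counts. Of 6 tested genes of the liver X receptor pathway, a known regulator of LPCAT3, 1 rose and 2 fell. NR1H3, which encodes LXR-alpha, fell from 63.4 ± 11.3 to 2.66 ± 4.31 CPM. NR1H2, the other LXR gene, was not called, at 48.6 ± 8.66 CPM in control and 44.3 ± 20.5 CPM in starved libraries (limma adjusted p = 0.571). RXRA fell, with 62 counts in all control and 14 in all starved libraries. ABCG1 rose from 3.26 ± 3.15 to 12.1 ± 5.32 CPM, from 5 and 16 counts over the groups. Over these 10 lists the median log2 change ran from -1.56 to 0.95, beside -0.22 over all tested genes.

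**Figure D4:**
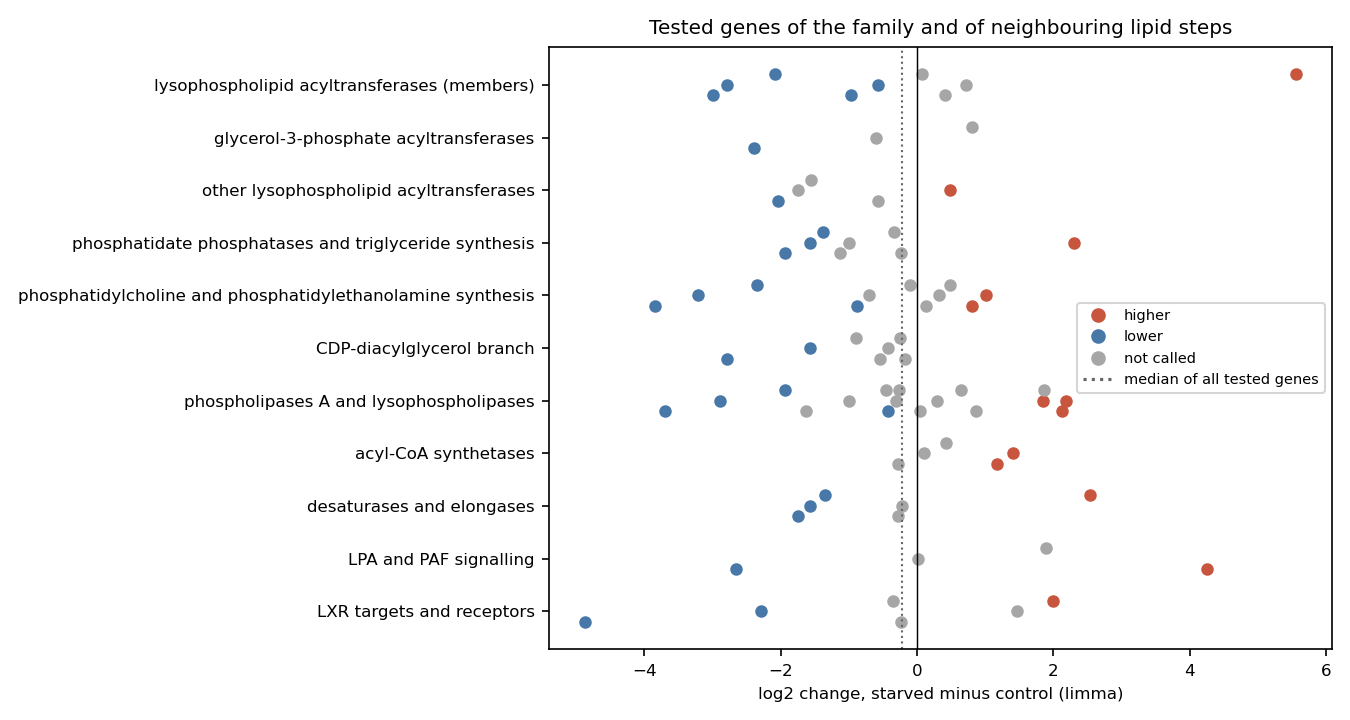
Log2 change, starved minus control, of each tested gene of the family and of the 10 lists of neighbouring lipid steps (red called higher, blue called lower, grey not called by limma), with the median of all tested genes as a dotted line. AGPAT4 at 5.56 lies furthest to the right, and NR1H3 at -4.87 furthest to the left.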

How the data were processed

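Per the labels' protocols, RNA was prepared for sequencing with a 3' kit (QIAseq UPX), and the submitters' processing notes name the build hg19. Aligner, counter, annotation, strand and molecular identifiers: not given in the sources used here. Values were deposited as CPM: each column sums to 1000000, and 100% of values above 0 were whole multiples of the column's smallest (relative tolerance 1e-06), which gave whole counts. No coordinates come from the deposited table; promoter coordinates are RefSeq's on GRCh38.p14, and overlapping genes were read from GENCODE 29, which holds 97.2% of the table's gene identifiers.

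Group differences were tested by limma 3.58.1 (trend option, R 4.3.3), two-sided, without covariates. Alternatives were pseudocounts of 0.5 and 5, no filter or 20 CPM, 3 scalings, a replicate block, libraries left out, and count tests on the recovered counts (edgeR 4.0.16, DESeq2 1.42.0). The genes, lists and the rule for named genes (up to 3 called genes of smallest p per list) were chosen with earlier results of these data known. Genes outside that rule (GPAT3, NR1H2, the gene neighbours and overlapping genes, and the markers) were named after their values were seen or as checks.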

Additional observations from a re-analysis of the deposited data

Results flagged for a closer look

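In groups of 5 libraries, a value was singled out when its gap to the next value took more than 0.71 of the group's range (Dixon's 95% limit). For continuous values chance alone does so in about 1 in 20 groups; 2 of the 20 groups examined here had one, and that rate does not hold for groups with tied values at 0. AGPAT4 in control replicate 1 stood at 7.05 CPM where the other control libraries stood at 0; this is a single count in the shallowest library, and with the others at 0 any count in 1 library would have been singled out. AGPAT5 in starved replicate 4 stood at 177 CPM, from 29 counts, and the next starved library at 103 CPM.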

How the results depend on the processing

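AGPAT2, AGPAT3, AGPAT4 and LPGAT1 kept their direction and their call in all 21 alternative fits, and LPCAT1 and LPCAT4 in all 20 that tested them. The count of genes called lower was 5, and 3 with a filter at 20 CPM, which leaves out LPCAT1 and LPCAT4. The count called higher was 1, and 2, with AGPAT1 added, with a filter at 20 CPM, median-of-ratios scaling, quantile normalization, edgeR or DESeq2; leaving out single libraries it ran from 1 to 2 (2 without control replicate 1 or starved replicate 5). The median log2 change of the genes was -0.57. It was -0.25 without a filter, which adds LPCAT2, and 0.067, so reversed, with a filter at 20 CPM, over 7 genes. Leaving out single libraries it ran from -0.66 to -0.48. The AGPAT5 change, never called, ran from -0.12 to 0.15 as single libraries were left out, reversed only without starved replicate 4. Quantile normalization moved the median of all tested genes from -0.22 to -0.02. With the replicate block the counts were 1 and 5 and the median -0.57. Same-numbered libraries did not deviate together (correlations -0.02 to 0.02). In shallow libraries counting noise can hide a shared deviation, so this cannot decide whether the numbers pair them. Depth limits LPCAT2, LPCAT4 and LPCAT1 most, with 5, 27 and 49 counts over all libraries.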
